A study of Oryza sativa Japonica Group with 8 samples.

Results

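Transcript levels in rice roots were set against those in flag leaves, both taken before flowering, with 1 library on each side. Of the 41805 loci in the deposited table, 38124 were at least 300 bp long, and the 30065 of these that reached 1 FPKM in either library were compared. FPKM counts sequenced fragments per unit of transcript length, scaled by the total mapped. The measure was log2 of (FPKM + 1) in roots over (FPKM + 1) in leaves, which understates the difference at low values. A locus with a value of 2 or more, a 4-fold difference, is called a root locus here. One with a value of -2 or less is called a leaf locus.

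The plants were japonica rice (Oryza sativa) raised in a greenhouse, with no mutant, transgene or treatment in the labels. Roots and flag leaves before flowering were each a mixture of stages running from the start of the panicle to 1 day ahead of flowering. The other 6 libraries were flower buds, flowers, milk grains, mature seeds, and leaves and roots after flowering. Every group had 1 library, so no difference below has a replicate check, and no test was run.

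Roots take up water and mineral ions such as nitrate and phosphate, and seal their vascular core with barriers in the endodermis and exodermis. Flag leaves are the uppermost leaves of the shoot and a main source of the photosynthate that fills rice grains. Photosynthesis draws on many nuclear genes for the light-harvesting antennae, the photosystems and carbon fixation, and their transcripts are abundant in leaves and scarce in roots. The deposited identifiers are paired with no gene names, and 0 of them were found in the 39387 genes of the reference table, so organ markers could not be checked by name. Loci are therefore described by position in Release 7 of the MSU rice annotation, per the file header, and by level. Whether a position is exonic, intronic or untranslated is not given there.

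Leaves before and after flowering were alike over the compared loci, with a Spearman correlation of 0.92 across loci, which share libraries and are not independent. Roots and leaves before flowering correlated at 0.54. Roots before flowering correlated at 0.55 with the library labelled roots after flowering. That library resembled leaves and took no part in choosing root or leaf loci, and its values are given apart. Read totals were not among the values at hand. At the shortest loci, of 101 bp, the values fell on whole multiples of 1 read (within 0.03 of a step), and these steps, from 8 to 16 loci a library and strand, put the leaf library at 1.24 times the depth of the root library on the plus strand and 1.22 times on the minus strand.

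Root loci numbered 5139, or 17.1% of the compared loci, and leaf loci numbered 3545, or 11.8%. The remaining 21381 loci, 71.1% of those compared, were less than 4-fold apart. In whole-organ RNA, more cells of a type and more transcript per cell cannot be told apart. The ratios were centred close to 0, with a median of 0.03 and quartiles of -0.99 and 1.34, so the upper arm was longer than the lower one. At 16-fold or more, 1600 loci (5.32%) were higher in roots and 1029 (3.42%) in leaves. At 64-fold or more, the counts were 447 (1.49%) and 298 (0.991%). Root loci thus outnumbered leaf loci at each of these limits. Within 10% inside the 4-fold limit lay 710 loci and within 10% outside it 740, so many loci sit near the edge of the rule.

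**Figure D1:**
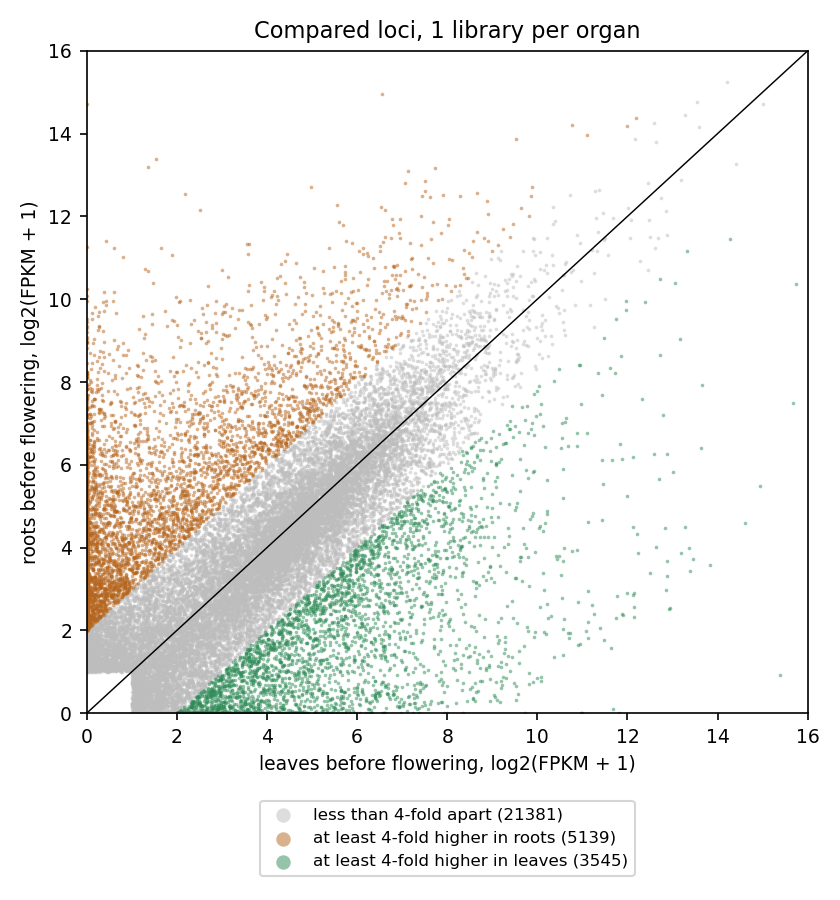
Level of each compared locus in leaves (x axis) and roots (y axis) before flowering, as log2(FPKM + 1), with 1 point per locus and the line of equal levels in black. The 5139 loci above the grey band are at least 4-fold higher in roots, the 3545 below it at least 4-fold higher in leaves, and points on an axis are listed at 0 in 1 library.

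Many root loci were listed with no transcript in leaves. In leaves, 1332 root loci were listed at 0, of which 613 stood at 10 FPKM or more in roots. In roots, 537 leaf loci were listed at 0, of which 185 stood at 10 FPKM or more in leaves. By the steps at the shortest loci the leaf library was the deeper one, and the part of depth in these zeros was not tested. An exact 0 in such a table can also be a failed estimate, so no fold is given for these loci. Among loci above 0 in both libraries, 3807 were root loci and 3008 leaf loci.

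The called loci carried much of each organ's FPKM sum. Root loci held 46.2% of the FPKM sum over loci of at least 300 bp in roots and 3.39% in leaves. Leaf loci held 47.7% of that sum in leaves and 1.98% in roots. Loci less than 4-fold apart thus made up only about as much of the sum as the called loci, at 51.7% in roots and 48.8% in leaves. The calls were made on these same values. The contrasts of the called loci between the organs therefore come with the rule, which also partly sets the counts below. At 1000 FPKM or more in roots stood 312 loci, of which 197 were root loci. At that level in leaves stood 224 loci, of which 137 were leaf loci, and 68 loci passed it in both organs. Among the 10 highest loci of the roots, 5 were root loci, and these 10 held 11.3% of the sum. Among the 10 highest of the leaves, 7 were leaf loci, and these 10 held 14.9%.

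The most extreme ratios among loci of at least 500 bp that exceeded 0 in each library and reached 10 FPKM in 1 of them were taken as examples, with 2 in each direction. M_XLOC_016069 (22529385 to 22531323 on the minus strand of chromosome 2) stood at 10777 FPKM in roots and 1.90 FPKM in leaves before flowering, a log2 ratio of 11.86. It was listed at 0 in flowers, leaves after flowering and milk grains, and stood at 2.94 FPKM in flower buds, 1.61 FPKM in the library labelled roots after flowering and 66.9 FPKM in mature seeds. Roots before flowering were thus the only library of the 8 above 100 FPKM. M_XLOC_040273 (14479023 to 14479844 on the minus strand of chromosome 9) stood at 9387 FPKM in roots and 1.57 FPKM in leaves before flowering, a log2 ratio of 11.83. Its other values were 2.30 FPKM in flower buds, 4.54 in flowers, 0.356 in leaves after flowering, 3.39 in the library labelled roots after flowering, 0.691 in milk grains and 26.6 in mature seeds. Both root examples had their next highest level in mature seeds.

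P_XLOC_018847 (chromosome 3, 14567424 to 14573315, plus strand) had the lowest ratio, -14.46, with 42913 FPKM in leaves and 0.904 FPKM in roots before flowering. It stood at 45050.4 FPKM in leaves after flowering and 21747 FPKM in the library labelled roots after flowering, against 1.22 FPKM in flower buds, 16.2 in flowers, 18.8 in milk grains and 1.26 in mature seeds. It was thus high in both leaf libraries and the leaf-like one, and low in the rest. P_XLOC_032398 (chromosome 7, 2175206 to 2176561, plus strand) had a ratio of -11.56, with 3255 FPKM in leaves and 0.0766 FPKM in roots before flowering. It stood at 57.3 FPKM in leaves after flowering, 47.6 in flower buds, 4.05 in milk grains, 10.2 in mature seeds and 0.668 in the library labelled roots after flowering, and was listed at 0 in flowers. Unlike the preceding locus, it was high in the earlier leaf library alone. Against leaves after flowering its log2 ratio was -5.76.

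**Figure D2:**
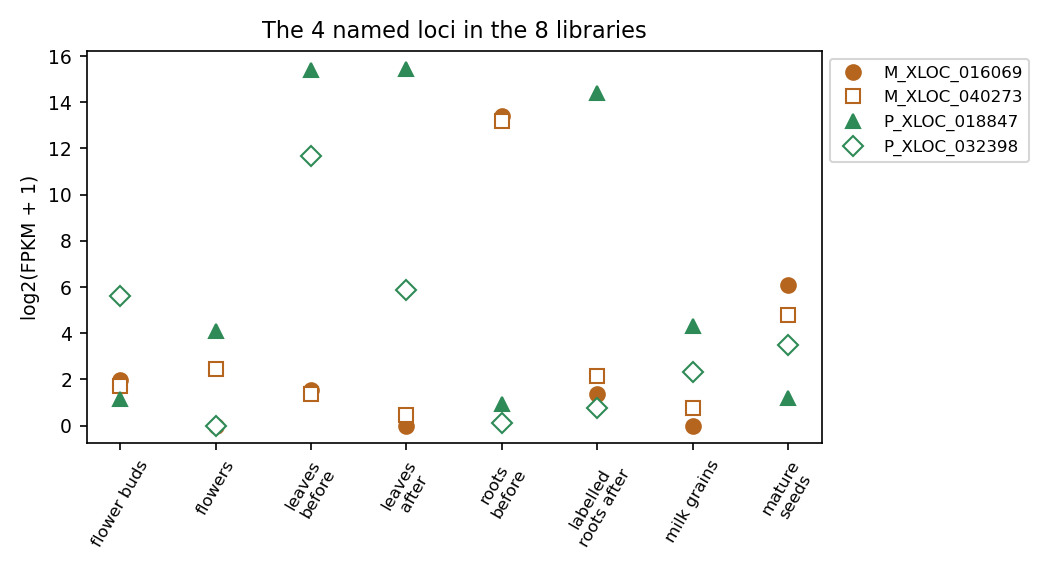
Level of the 4 named loci in each of the 8 libraries, as log2(FPKM + 1), with orange for the root examples and green for the leaf examples. Both root examples peak in roots before flowering alone, while P_XLOC_018847 is high in both leaf libraries and in the library labelled roots after flowering.

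The highest root loci were described further after their values had been seen. Of the 10 root loci with the highest level in roots, 3 lay on the minus strand of chromosome 2 within 53.1 kb, from 22509898 to 22562967, and together held 2.35% of the root FPKM sum. M_XLOC_016069 is the middle one of these. The first, at 22509898 to 22510548, stood at 26996 FPKM in roots, was listed at 0 in both leaf libraries, and stood at 278 FPKM in mature seeds. The last, at 22545473 to 22562967, stood at 14901 FPKM in roots and 742 FPKM in leaves. The 11 compared loci of the stretch were not all alike, since 4 were root loci, 2 were leaf loci and 5 were neither. The highest root locus of all lay on the minus strand of chromosome 10 (23192305 to 23206273), at 31769 FPKM in roots and 93.1 FPKM in the earlier leaf library. In the later one it stood at 5661 FPKM, still below its root level, so the size of its contrast with leaves depended on the leaf library. The highest leaf locus lay on chromosome 7 (20724563 to 20726098, plus strand), at 54610.3 FPKM in leaves and 1310.3 FPKM in roots.

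The 6 libraries that the rule did not use gave levels of the same loci elsewhere in the plant. The median root locus stood at 28.5 FPKM in roots, 0.720 FPKM in the earlier leaf library and 0.913 FPKM in the later one. In the other organs their medians were 3.32 FPKM in flower buds, 3.37 in flowers, 3.26 in milk grains and 1.01 in mature seeds. The typical root locus was thus low in every other organ. The median leaf locus stood at 35.8 FPKM in the earlier leaf library, 23.7 FPKM in the later one and 1.61 FPKM in roots. Their medians were 10.8 FPKM in flower buds, 11.6 in flowers, 8.71 in milk grains and 3.09 in mature seeds. In flowers and milk grains, leaf loci were therefore nearer to loci that were neither, whose medians there were 11.1 and 11.8 FPKM, than root loci were. Because the loci were picked for a high value in 1 library, some decline in any second library is built into these medians. Root loci were also picked for a low value in leaves and leaf loci for a low value in roots, so the low medians there, and in leaves after flowering, which resemble the earlier leaves, come with the rule.

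**Figure D3:**
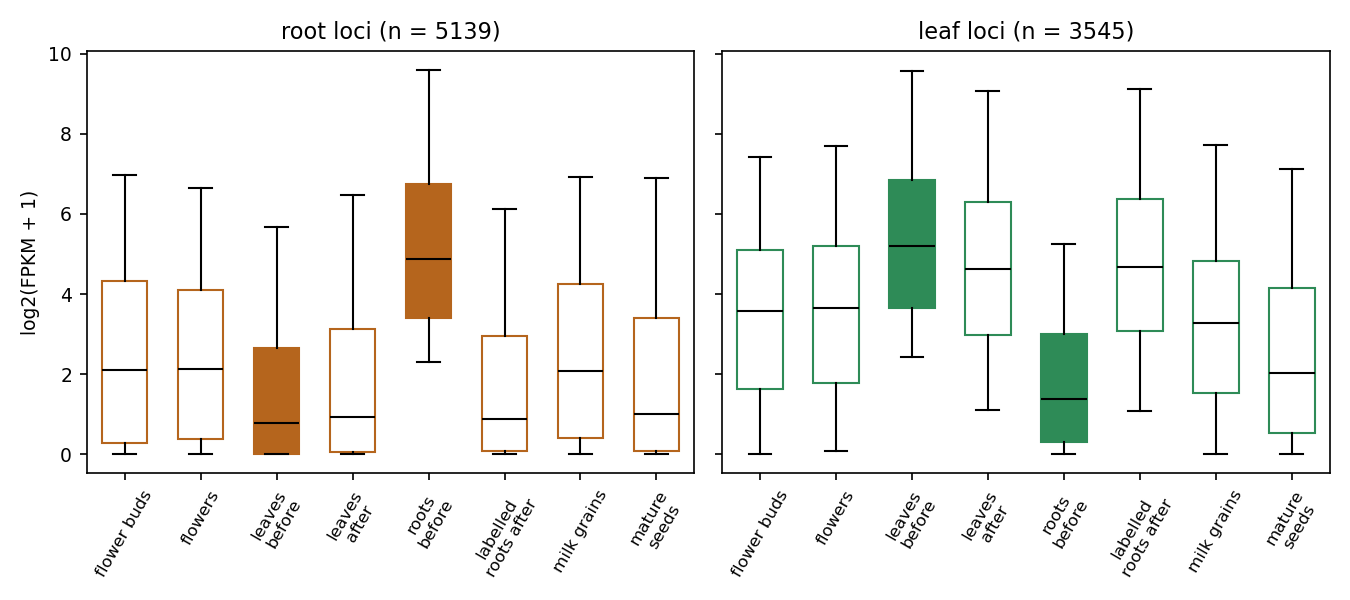
Levels of the root loci (left) and the leaf loci (right) in the 8 libraries, as log2(FPKM + 1). Boxes span the quartiles with the median as a line, and whiskers run from the 5th to the 95th percentile over loci. Filled boxes are the libraries that the rule used. At the median, leaf loci stay high in leaves after flowering, and root loci are high in roots before flowering alone. The only other library labelled roots resembles leaves. Upper quartiles of root loci reach 19.2 FPKM in flower buds and 18.2 FPKM in milk grains.

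Across the 4 flower and grain libraries, which the rule did not use, 1196 root loci (23.3%) stayed under 1 FPKM in all of them. The same held for 326 leaf loci (9.20%) and for 1994 loci (9.33%) that were neither. At the other end, 738 root loci (14.4%), 801 leaf loci (22.6%) and 8257 loci that were neither (38.6%) stood at 10 FPKM or more in all 4. The share under 1 FPKM throughout was thus largest for root loci, and the share at 10 FPKM or more throughout was largest for loci that were neither. These differences were not tested. Flower buds were the highest of the 4 libraries for 28.4% of root loci, 29.8% of leaf loci and 21.9% of loci that were neither. Flowers were the highest for 18.1%, 32.9% and 15.2% of them in the same order. Mature seeds were the highest for 37.7% of loci that were neither, against 23.3% of root loci and 18.3% of leaf loci.

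The same loci and calls were also sorted by their mean level in those 4 libraries, which restates the contrast by class and adds no separate evidence. Below 1 FPKM, 1608 of 5012 loci (32.1%) were root loci and 501 were leaf loci. Loci of this class entered the comparison through roots or leaves alone, so the share called there is partly set by the filter. From 10 to 30 FPKM the shares were close, at 12.9% and 12.5% of 7304 loci. At 300 FPKM or more, 11.2% of 848 loci were root loci and 18.6% were leaf loci. Of the 158 leaf loci in this class, 48 stood at least 100 times higher in a grain library than in leaves before flowering. Without these and 4 root loci as far above their root level, a comparison made after the data were seen, the shares were 11.4% and 13.8% of 796. Only called loci were taken out, 48 of them leaf loci, so a lower share of leaf loci was bound to follow. Length also separated the directions. Among 4711 loci of 1000 to 1999 bp, 29.2% were root loci and 13.5% leaf loci, whereas among 2967 loci of 8000 bp or more the shares were 8.97% and 10.1%. The median length was 2101 bp for root loci, 2457 bp for leaf loci and 3338 bp for loci that were neither. These lengths are genomic spans that include introns.

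**Figure D4:**
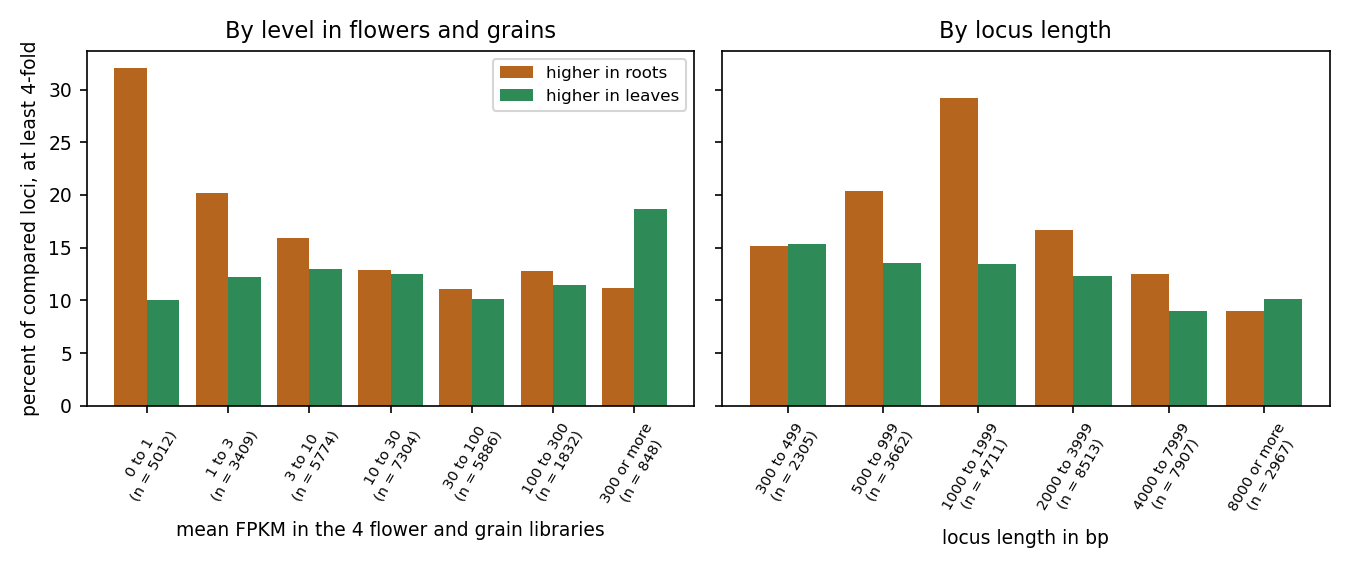
Percent of compared loci that are at least 4-fold higher in roots (orange) or in leaves (green), by mean FPKM over the 4 flower and grain libraries (left) and by locus length (right), with the number of loci under each class. Root loci make up 32.1% of the loci lowest in flowers and grains and 29.2% of loci of 1000 to 1999 bp, while leaf loci vary less between classes.

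This group of leaf loci far higher in grains than in leaves was noticed after the data were seen. In milk grains or mature seeds, 50 leaf loci (1.41%) stood at least 100 times higher than in leaves before flowering. Over these loci the medians were 12.3 FPKM in the earlier leaf library, 7.97 FPKM in the later one and 0.353 FPKM in roots. They were 3067 FPKM in milk grains and 10521 FPKM in mature seeds, but 0 in flower buds and in the library labelled roots after flowering, and 0.106 FPKM in flowers. The leaf level was at the median 0.0758% of the higher grain level, and its source was not tested. These 50 loci held 24.2% of the FPKM sum in milk grains and 33.8% in mature seeds, where all the other leaf loci held 9.22% and 4.85%. They therefore made up most of the FPKM sum of leaf loci in grains. The group was picked for grain levels far above leaf levels. Leaf levels far below those in grains, and part of this share, thus come with that choice. Only 5 root loci were as far above their root level in a grain library.

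Roots before flowering were also set against leaves after flowering, a comparison that shares the root library. It gave 5055 loci higher in roots (16.8% of 30011 compared) and 3380 higher in leaves (11.3%), close to the numbers against leaves before flowering. The pair of libraries from after flowering shares no library with the pair before it. In that pair, 103 loci (0.395% of 26047) passed the 4-fold limit towards the library labelled roots and 140 (0.537%) towards leaves. The median log2 ratio of the later pair was 0.00 over root loci and 0.10 over leaf loci. The median of root loci was 0.830 FPKM in the library labelled roots after flowering, against 28.5 FPKM in roots before flowering. The median of leaf loci there was 24.6 FPKM, against 1.61 FPKM in roots before flowering. The difference between root and leaf libraries before flowering was thus not seen in the later pair, at either set of loci. Since the library labelled roots after flowering resembles leaves, this pair cannot show whether roots and leaves differed after flowering.

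Root and leaf loci were present on all 12 chromosomes in similar shares. Root loci made up between 15.3% of compared loci on chromosome 7 and 19.1% on chromosome 1. Leaf loci made up between 10.5% on chromosome 10 and 14.3% on chromosome 7. Chromosome 7 thus had both the lowest share of root loci and the highest share of leaf loci. On the plus and minus strands the shares of root loci were 17.4% and 16.8%, and those of leaf loci 11.7% and 11.9%.

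On a finer scale, loci called the same way were often neighbours. Among consecutive loci on the same strand, not overlapping and less than 5000 bp apart, 32.1% of 1339 root loci were followed by another root locus, against 16.5% over all such pairs. For leaf loci the share was 24.8% of 959, against 11.4%. At 5000 bp or more on the same strand the shares were 28.1% against 20.8% for root loci and 19.3% against 11.6% for leaf loci. Between opposite strands less than 5000 bp apart, they were 23.5% against 15.7% and 14.6% against 10.5%. The excess was thus present in each of these classes, and within each gap class it was larger on the same strand. A gene assembled as several loci would add to it, and its part was not tested. Of the compared loci, 2107 lay inside a longer compared locus of the same strand, including 219 root loci and 343 leaf loci.

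In runs of at least 3 consecutive compared loci called the same way lay 1097 root loci, in 314 runs, and 481 leaf loci, in 138 runs. These counts include loci inside a longer one. Root loci were also the larger share of compared loci, at 17.1% against 11.8%. How many runs these shares alone would give was not computed. The longest run with no locus inside another held 9 root loci, all on the plus strand of chromosome 8 between 5222214 and 5265389. Each was 1031 to 1213 bp long, so the run is a row of loci of similar size. In roots they stood at 33.2, 30.9, 97.9, 219, 386, 92.6, 185, 285 and 605 FPKM along the chromosome. In leaves before flowering none exceeded 1.75 FPKM. The first 2 loci stood at 42.2 and 41.1 FPKM in milk grains and were listed at 0 in leaves after flowering. The other 7 stood between 4.03 and 66.5 FPKM in leaves after flowering, and between 2.98 and 104 FPKM in the library labelled roots after flowering. A root level above the leaf level in all 9 comes with the choice of the run, while levels in other organs differed between its loci. The locus at 386 FPKM in roots, for example, also stood at 35.6 FPKM in flower buds, 26.8 in flowers and 14.2 in milk grains. Near-identical copies could share reads, and the sequences of these loci were not analysed here, so levels of the single copies are uncertain.

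Along the chromosomes, windows of 200 kb held a median of 16 compared loci. At least 5 root loci lay in 410 of 1859 windows and at least 5 leaf loci in 147, while 33 windows held at least 5 of each. Over all compared loci, 17.1% were root loci and 11.8% leaf loci. How many such windows these shares alone would give was not computed. Counts as high as 14 root loci were reached in 3 windows. In the window on chromosome 9, 14 of 32 loci were root loci and 1 was a leaf locus, spanning 18611083 to 18771506. These root loci ranged from 4.74 to 1443 FPKM in roots, with a median of 50.9, and had a median of 1.56 FPKM in leaves. In the window on chromosome 3, 14 of 34 loci were root loci, spanning 30024288 to 30200507, with medians of 77.2 FPKM in roots and 0.446 FPKM in leaves. It also held 7 leaf loci, so both directions met within it. In the window on chromosome 1, 14 of 43 loci were root loci, spanning 33618365 to 33779738, with medians of 55.5 FPKM in roots and 2.20 FPKM in leaves, and 4 were leaf loci.

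The largest count of leaf loci in a window was near the start of chromosome 1, where 14 of 36 compared loci (38.9%) were leaf loci and 1 was a root locus, spanning 804084 to 980699. Their levels in leaves before flowering were modest, from 3.85 to 76.4 FPKM with a median of 11.3 FPKM, and in roots the median was 0.0929 FPKM. In leaves after flowering the median was 41.0 FPKM, higher than before flowering. In the window on chromosome 11, 11 of 23 loci (47.8%) were leaf loci and 2 were root loci, spanning 4094565 to 4175440, with medians of 45.7 FPKM in leaves and 0.300 FPKM in roots. There 4 of the 11 lay inside a longer locus of the same strand, so these are not 11 separate regions. In the window on chromosome 4, 10 of 20 loci were leaf loci and none was a root locus, spanning 8437451 to 8519641, with medians of 34.9 and 0.238 FPKM. This window tied at 10 leaf loci with 2 others and had the largest share among them. Of its 10 leaf loci, 2 lay inside a longer locus.

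**Figure D5:**
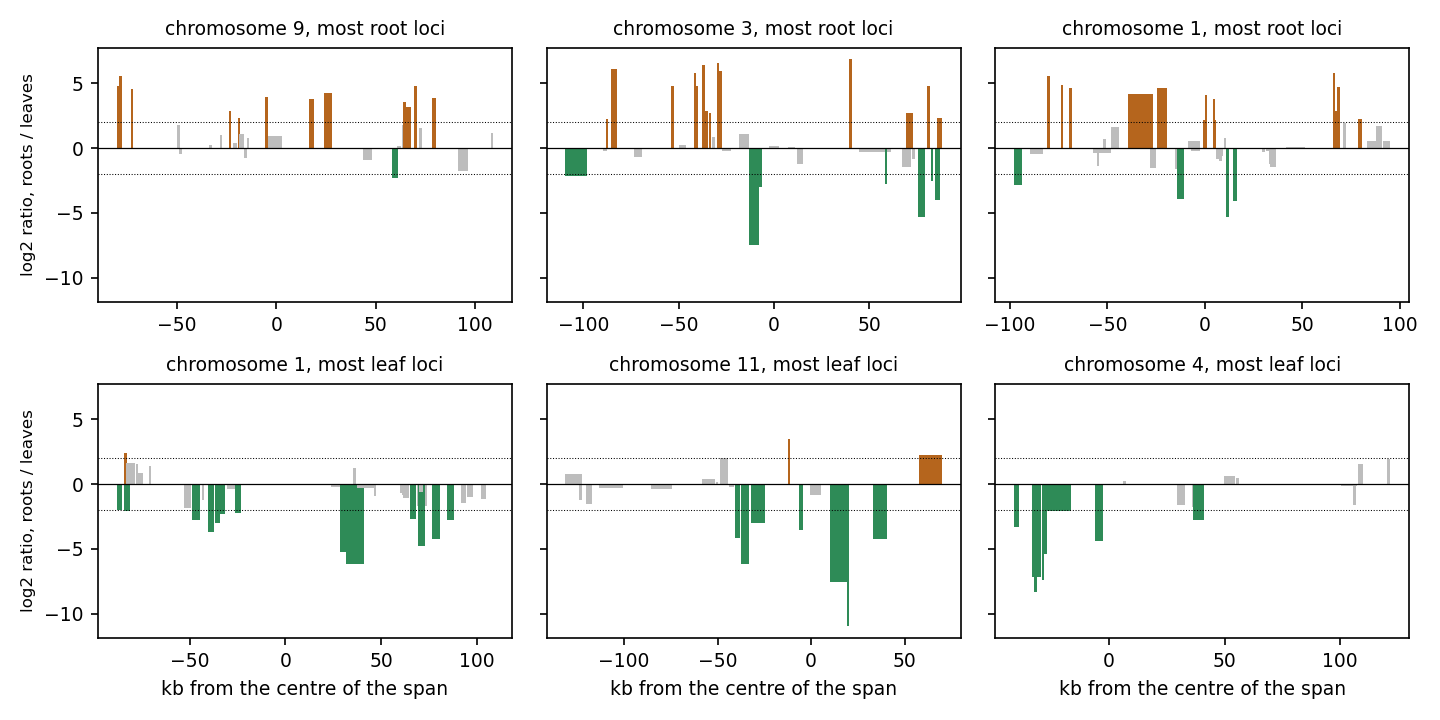
The log2 ratio of roots over leaves for each compared locus in the 3 windows of 200 kb with the most root loci (top) and the most leaf loci (bottom), against distance in kb from the centre of the span. Bars are as wide as the locus (at least 1.2 kb), orange at 2 or more, green at -2 or less and grey between, with the limits dotted; the chromosome 9 window holds 14 root loci and 1 leaf locus, and the chromosome 4 window 10 leaf loci and 0 root loci.

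Some overlapping loci on opposite strands were called in opposite directions. Such pairs were a minority. Among 3484 overlapping pairs of compared loci on opposite strands, 100 joined a root locus to a leaf locus, 75 joined a pair of root loci and 87 a pair of leaf loci. Where the next compared locus overlapped on the opposite strand, 11.0% of root loci were followed by a leaf locus, against 14.4% over all such neighbours. In that order opposite calls were thus not in excess, and the share for the reverse order was not computed. In 54 of the 100, both loci reached 10 FPKM in their higher library. The largest summed contrast of these was on chromosome 1, where a plus-strand locus at 11683693 to 11684136 lay wholly inside a minus-strand locus at 11682576 to 11684608. The plus-strand locus stood at 334 FPKM in roots and 0.637 FPKM in leaves, and the minus-strand locus at 0.160 FPKM in roots and 24.0 FPKM in leaves. On chromosome 7, a plus-strand locus at 2797691 to 2801364 stood at 14.1 FPKM in roots and 1734 FPKM in leaves. The minus-strand locus that overlapped its end by 39 bp, at 2801326 to 2804315, stood at 27.9 FPKM in roots and was listed at 0 in leaves. In these pairs the strand with the higher level thus changed between the organs. Of the 162 pairs called in the same direction, the lower locus stood under 1% of the higher one in 7, and at 10% or more of it in 126.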

How the data were processed

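Polyadenylated RNA was sequenced with a stranded Illumina kit on a HiSeq instrument, per the labels' protocols. The authors deposited FPKM values for 8 libraries. The submitters' processing notes name TopHat, Cufflinks and Cuffdiff. Their versions, settings and read totals were not at hand (not given in the sources used here), so no counting interval could be attached. All value columns were matched to samples by title.

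Ratios used a pseudocount of 1 FPKM, a filter of 1 FPKM in either library, a minimum length of 300 bp and a limit of 4-fold (Python 3.11.15, pandas 2.3.3). The counting was tested on simulated data. Alternatives were pseudocount, filter, limit, length, strand, rescaling, leaf library, window size and overlap. Loci were chosen as examples by the rule given with them, and windows by their count. Planned marker lists were not computed, for want of gene names. The members, lists and rules were chosen with earlier results of these data known. Sequences were not analysed here.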

Additional observations from a re-analysis of the deposited data

Results flagged for a closer look

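Both results here were picked out because single loci differed one way between root and leaf libraries before flowering and the opposite way after it, with 1 library per group, and the difference was not tested. Of the root loci, 24 were lower by 4-fold or more in the library labelled roots after flowering than in leaves of that stage. Of the leaf loci, 29 were higher by 4-fold or more in that library than in the same leaves. The 24 are 0.467% of root loci, close to the 0.439% (132 loci) over all 30065 compared loci, and 16 root loci passed the limit the other way. The 29 are 0.818% of leaf loci, beside 0.323% (97 loci) over all compared loci, and 68 leaf loci passed the limit the other way. The later library resembles leaves, so an organ difference is given here only as labelled.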

How the results depend on the processing

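With 1 library per group no replicate could be left out. No paired analysis was possible because no group has more than 1 library. Root loci outnumbered leaf loci under every setting run. The counts moved by over 1.5 times where the limit or the loci counted changed by construction: to 9171 root and 7458 leaf loci at a 2-fold limit, 1600 and 1029 at 16-fold, 2603 and 1743 on the plus strand alone, and 2536 and 1802 on the minus strand alone. With a pseudocount of 0.1 they were 7210 and 5309. The share of root loci among called loci, 59.2%, was 57.6% with a pseudocount of 0.1, 55.2% at 2-fold, 60.9% at 16-fold, 62.8% with median-ratio rescaling, 57.1% with equal sums, 56.3% with loci of any length, 55.9% with loci above 0 in both libraries and 60.6% without loci inside a longer one. The last 2 settings were chosen after seeing the data. The median log2 ratio of all loci was 0.20 with median-ratio rescaling, a shift of 0.17. It was -0.095 against leaves after flowering, -0.06 with equal sums and -0.04 for loci above 0 in both libraries, so its sign depends on the setting. Windows with at least 5 loci numbered 165 (root) and 52 (leaf) at 100 kb, and 26 and 4 at 16-fold. Without loci inside a longer one they numbered 384 and 102. Among loci at 300 FPKM or more in flowers and grains, the share of leaf loci fell from 18.6% to 13.8% without called loci 100 times higher in a grain library, also chosen after seeing the data. The loci taken out were mostly leaf loci, so the fall comes with the removal. Pairs in opposite directions numbered 83 at an overlap of 100 bp. The 4 named loci stayed past the limit in the same direction in all 16 values under the scaling, pseudocount and leaf-library alternatives. They were picked for extreme ratios, which the scaling and pseudocount used could not bring under the limit. Only the values against leaves after flowering could have fallen short. Depth limits low values, and loci listed at 0 cannot be told from failed estimates.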
